A study of Mus musculus with 2 samples.

Results

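Mir126a and Mir126b are 2 microRNA genes annotated on opposite strands of the same stretch of the Egfl7 locus. They were taken by symbol from the 2202 microRNA genes counted in the adrenal gland. The rule uses no measured value, although the pair was proposed with earlier results of these data known. The 2 libraries, replicates 1 and 2, came from female B6CASTF1/J mice aged 10 days. This strain is the first-generation cross of C57BL/6J and CAST/EiJ. No treatment or added allele is named in the labels, and both libraries belong to 1 group, so the data describe levels and their spread and no contrast between conditions. The labels number the animals 3 and 4 but give both samples the same donor entry, so the spread between the libraries may be technical in part. MicroRNA-seq reads short RNA, and a count here is the number of reads assigned to a gene on its own strand unless stated otherwise.

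Of the 5278986 reads of replicate 1 and the 8555429 reads of replicate 2, 38.3% and 37.5% were assigned to a microRNA gene on its strand. CPM, the count scaled to 1000000 of these assigned reads, had a grain of 0.494 in replicate 1 and 0.312 in replicate 2. Where no read was seen, up to 3 counts remain possible, or 1.48 CPM in replicate 1 against 0.935 CPM in replicate 2. Intervals and this limit cover the counting error of reads only. No molecular identifiers are named, so several reads may stem from the same molecule, which the intervals do not cover. For the tissue label, Mir375, Mir7b and Mir137 of neuroendocrine cells, which include the chromaffin cells of the medulla, together took 2.80% and 3.48% of assigned reads. No microRNA defining the steroid-producing cortex was among the fixed lists.

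The miR-126 microRNAs are known for endothelial cells, the cells that line blood vessels, and the steroid-producing cortex of the adrenal gland is filled with thin-walled capillaries. Their host, Egfl7, encodes a secreted protein made mainly by endothelium. In mouse and zebrafish, miR-126 represses Spred1 and a regulatory subunit of phosphoinositide 3-kinase, both of which dampen signalling by vascular endothelial growth factor, and its loss leaves vessels leaky. It is also found in blood stem cells and platelets. The antisense gene Mir126b is far less studied, and no function is assumed for it here.

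In the build mm10, Egfl7 lies on the plus strand of chromosome 2 from 26580014 to 26593120. Of its 19 transcripts in GENCODE M21, 8 carry Mir126a inside an intron, 7 of them protein-coding. In a protein-coding transcript of 10 exons it is intron 7. One further transcript is a retained-intron form whose exon 4 includes the hairpin, and the other 10 do not span it. Mir126a (ENSMUSG00000065540.1) is transcribed in the direction of Egfl7 and is 73 bases long. Mir126b (ENSMUSG00000105799.1) is 58 bases long, runs against Egfl7 and lies wholly within Mir126a, which reaches 6 bases further on its 5′ side and 9 bases further on its 3′ side.

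Both hairpins are shown because their overlap decides which reads can be told apart. They are the RefSeq sequences of GRCm38.p6, each 5′ to 3′ on its own strand, with the mature microRNAs of that table in capitals. The first is at chr2:26591357-26591429 on the plus strand and the second at chr2:26591363-26591420 on the minus strand.
Mir126a hairpin: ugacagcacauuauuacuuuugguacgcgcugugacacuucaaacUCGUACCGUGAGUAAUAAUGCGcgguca
Mir126b hairpin: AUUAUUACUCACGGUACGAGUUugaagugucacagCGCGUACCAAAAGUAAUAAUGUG

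The Mir126b hairpin is the exact reverse complement of bases 7 to 64 of the Mir126a hairpin. A read from either strand within that stretch therefore has the same coordinates, and only its direction assigns it. The RefSeq table lists miR-126a-3p as the only mature microRNA of Mir126a, so any product of the rest of that hairpin is not compared. A count per gene does not tell which part of a hairpin its reads came from. The listed mature sequences are shown next with their seeds, bases 2 to 8, in capitals, since the seed guides target recognition.
miR-126a-3p: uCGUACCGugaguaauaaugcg
miR-126b-5p: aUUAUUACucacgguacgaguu
miR-126b-3p: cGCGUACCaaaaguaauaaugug

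Among the 1679 mature microRNA names of the RefSeq table, no other shared any of these 3 seeds. The first 19 bases of miR-126a-3p are the reverse complement of the first 19 bases of miR-126b-5p. The rare strand also resembles the abundant one. miR-126a-3p and miR-126b-3p share the run AGUAAUAAUG, which starts at base 11 of the first and base 12 of the second, and the run CGUACC, which starts at base 2 of the first and base 3 of the second. Their seeds thus hold the same 6 bases shifted by 1 position. These likenesses are descriptions of the letters.

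Folded in silico, the Mir126a hairpin had a minimum free energy of -31.2 kcal/mol with 27 base pairs, and the Mir126b hairpin -19.3 kcal/mol with 21 base pairs. Per base this was -0.43 kcal/mol for Mir126a and -0.33 kcal/mol for Mir126b, against a median of -0.41 kcal/mol over 1005 mouse hairpins of the table. Mir126a was more stable per base than 59.5% of these hairpins and Mir126b more stable than 22.5%. The annotated Mir126b hairpin lacks the outermost bases of the Mir126a stem.

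**Figure D1:**
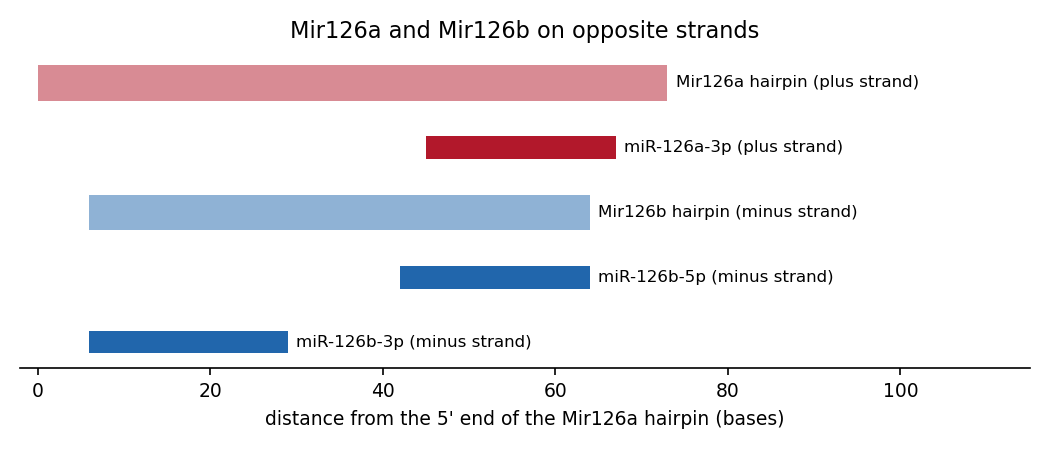
Position of both hairpins (pale) and of the mature microRNAs listed by RefSeq (dark) along the locus, in bases from the 5′ end of the 73-base Mir126a hairpin. Red marks the plus strand and blue the minus strand; the 58-base Mir126b hairpin lies within Mir126a and its miR-126b-5p lies across from miR-126a-3p.

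Mir126a was the most abundant microRNA gene by mean level, at 359617 reads in replicate 1 and 153788 reads in replicate 2. This was 177728 CPM in replicate 1 against 47927 CPM in replicate 2, a mean of 112827 ± 91784 CPM (SD, n = 2). Replicate 1 was the high library and replicate 2 the low one, and the SD was nearly as large as the mean. As a part of all sequenced reads, unmapped ones included, Mir126a made up 6.81% and 1.80%. Mir126b, in contrast, had 8 reads in replicate 1 and 5 reads in replicate 2. These are 3.95 CPM (exact 95% interval 1.71 to 7.79) and 1.56 CPM (0.506 to 3.64), a mean of 2.76 ± 1.69 CPM (SD, n = 2). Its intervals in the libraries overlap, and at this depth no difference between them was detectable. Mir126b stayed under the floor of 10 CPM in both libraries, so it was not among the 329 genes whose ratios are described below.

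Within each library the order of the most abundant genes differed. In replicate 1, Mir126a ranked 1 and stood 1.88-fold above Mir378a, a microRNA of an intron of the metabolic coactivator gene Ppargc1b, at 94651 CPM. It stood 3.28-fold above Mirlet7g (54169 CPM) and 3.80-fold above Mirlet7b (46728 CPM), members of the let-7 family of differentiated tissues. In replicate 2, Mir126a ranked 4, behind Mir378a (120608 CPM), Mirlet7b (75959 CPM) and Mirlet7g (48930 CPM). The last of these is its close neighbour there. There Mir126a took 4.79% of assigned reads (exact 95% interval 4.77 to 4.82%) and Mirlet7g 4.89% (4.87 to 4.92%). Below it in replicate 2 came Mirlet7i at 36762 CPM, Mir143 of smooth muscle at 33734 CPM and Mir23b at 33619 CPM.

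By mean level the first place of Mir126a was not separated from the genes that followed. The mean less 1 SD was 21044 CPM, and 10 other genes had means above that edge, the lowest of them Mir10a. Mir378a averaged 107630 ± 18354 CPM, Mirlet7b 61343 ± 20670 CPM and Mirlet7g 51550 ± 3704 CPM (SD, n = 2 each). Mirlet7i (34720 ± 2888 CPM), Mir143 (30633 ± 4385 CPM), Mir375 (28364 ± 5034 CPM) and Mir139 (27319 ± 2656 CPM) came next (SD, n = 2 each). The top 10 ended with Mir127 (26446 ± 3807 CPM) and Mir23b (23166 ± 14783 CPM, SD, n = 2 each). Mir126a had the widest SD of these 10 genes. Reads with several alignments were not counted, so microRNAs with near-identical gene copies may rank too low.

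**Figure D2:**
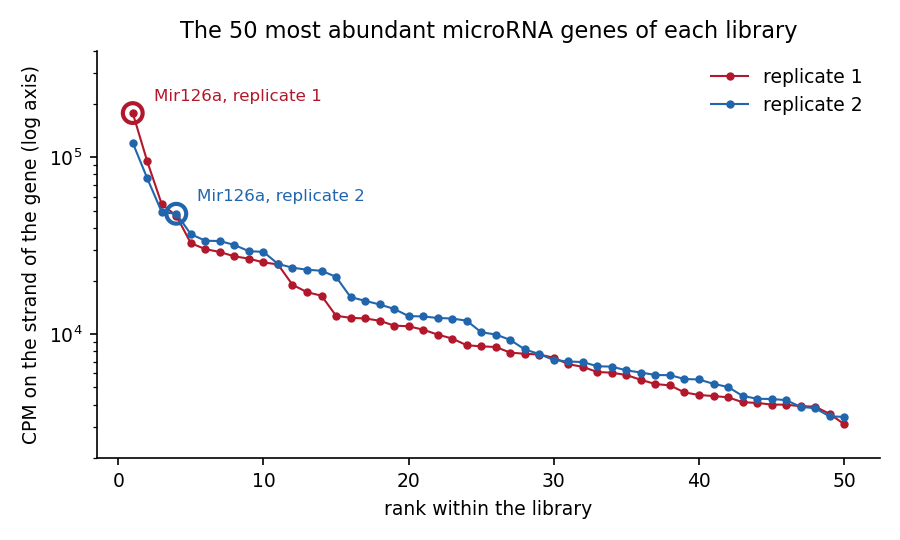
CPM (log axis) of the 50 most abundant microRNA genes of each library against their rank, with Mir126a circled. Mir126a is at rank 1 with 177728 CPM in replicate 1 (red) and at rank 4 with 47927 CPM in replicate 2 (blue).

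The 3 columns of the deposited tables gave very different values at this locus. The plus strand held nearly every read. Of the 359617 and 153788 plus-strand reads of Mir126a, 359602 and 153785 were listed in the opposite-strand column of Mir126b, and the other 15 and 3 reads were not. On the minus strand the 8 and 5 reads of Mir126b were the same number as the opposite-strand reads of Mir126a. Plus-strand reads outnumbered minus-strand reads 44952-fold in replicate 1 and 30758-fold in replicate 2.

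Counted irrespective of strand, a read that fits both genes is set aside as ambiguous, and this left 15 and 3 reads for Mir126a and 0 for Mir126b in both libraries. On that column, and over its own total of assigned reads, Mir126a would stand at 10.7 CPM in replicate 1 against 1.18 CPM in replicate 2. The reads set aside were 99.996% and 99.998% of the plus-strand reads of Mir126a. The pair supplied 359610 of the 621695 ambiguous reads of replicate 1, or 57.8% (exact 95% interval 57.7 to 58.0%). In replicate 2 it supplied 153790 of 667292, or 23.0% (22.9 to 23.1%). Summed over all 32 overlapping opposite-strand pairs of the annotation, the same arithmetic gave 621692 and 667282 ambiguous reads, within 3 and 10 reads of the totals in the tables.

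**Figure D3:**
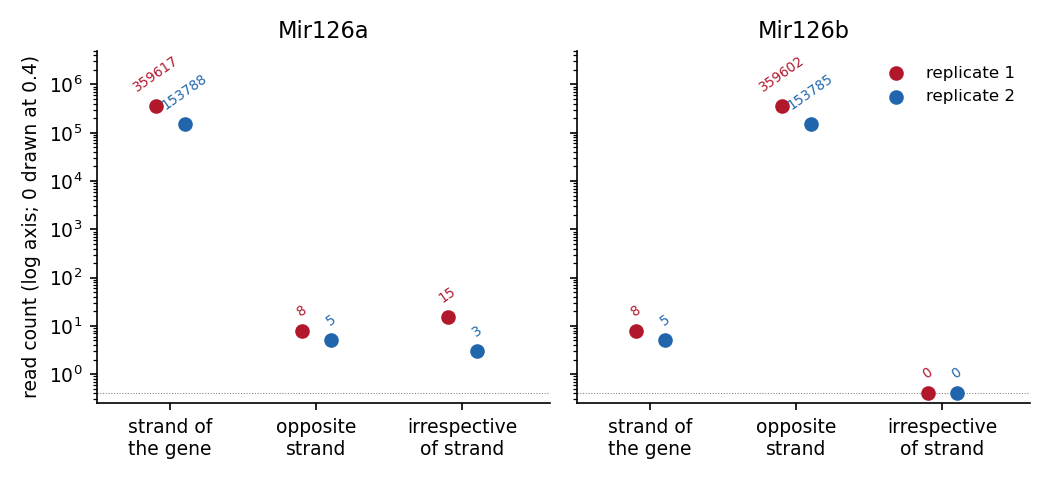
Read counts (log axis, 0 drawn at 0.4) of Mir126a (left) and Mir126b (right) on the gene's own strand, on the opposite one and irrespective of strand, in replicate 1 (red) and replicate 2 (blue). The 359617 and 153788 reads of Mir126a reappear, less 15 and 3, on the opposite strand of Mir126b, and irrespective of strand 15 and 3 reads are left for Mir126a and 0 for Mir126b.

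How rare the antisense reads are was set beside other genes. Mir126b reads made up 22.2 per 1000000 reads of the locus in replicate 1 (exact 95% interval 9.60 to 43.8) and 32.5 per 1000000 in replicate 2 (10.6 to 75.9). The 2135 microRNA genes that overlap no other microRNA gene had 84.2 opposite-strand reads per 1000000 reads in replicate 1 (69.7 to 101) and 81.4 in replicate 2 (70.7 to 93.3). Most of these came from Mir203, known from epidermis, with 82 opposite-strand reads beside 607 sense reads in replicate 1 and 130 beside 6869 in replicate 2. Without Mir203, a gene named after its values were seen, the rate was 25.7 per 1000000 (18.0 to 35.6) in replicate 1 and 30.4 per 1000000 (24.0 to 38.0) in replicate 2. The rate of Mir126b lay within both of these intervals, although this pool also averages genes of unlike rates, as given below. With Mir203 it lay below the pooled rate in both libraries. The pooled rate was uneven over genes in that Mir203 supplied most of the opposite-strand reads. Of the 84 unpaired genes averaging 1000 CPM or more, 77 had no opposite-strand read in either library. At rates this low, an even rate would also leave genes of lower depth without such a read. The count of 77 therefore cannot by itself show whether the rate was uneven among the genes other than Mir203. Single genes showed that it was. Mir7654 had 8 opposite-strand reads beside 8 sense reads in replicate 1 and 6 beside 0 in replicate 2. Mir708 had 3 beside 1521 and 8 beside 3084, whereas Mirlet7b had 2 beside 94549 and 6 beside 243738.

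Of the 32 opposite-strand pairs, 9 had a gene averaging 1000 CPM or more, and in 6 of these 9 the rarer gene had no read in either library. The pair of Mir378a and Gm25301 was closest to Mir126a in abundance. Gm25301 had 0 reads beside 191518 of Mir378a in replicate 1 and 0 beside 387010 in replicate 2. The limit of 3 counts is 15.7 and 7.75 per 1000000 there, and the exact 95% intervals reach somewhat higher. The exact 95% interval of Mir126b lay above that of Gm25301 in replicate 2 (10.6 to 75.9 against at most 9.53 per 1000000) and overlapped it in replicate 1 (9.60 to 43.8 against at most 19.3). Whether the few reads of Mir126b come from that gene was not tested. The rarer strand was also at 0 for Mir30e with Mir30f, Mirlet7e with Gm25927, Mir191 with Gm24083, Mir376a with Gm25252 and Mir409 with Gm24321. At their lower depth the limit of 3 counts lies between 78.4 and 811 per 1000000, so these 5 pairs could not show a rate as low as that of Mir126b.

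Besides Mir126b, the rarer gene had reads in 2 of these pairs. Mir3544 had 74 reads beside 5312 of Mir337 in replicate 1, a rate of 13739 per 1000000 (exact 95% interval 10803 to 17218), and 47 beside 6406 in replicate 2, a rate of 7283 per 1000000 (5356 to 9674). Both genes of that pair lie in the imprinted Dlk1-Dio3 region. Mir299b had 5 reads beside 4427 of Mir299a in replicate 1 and 0 beside 2710 in replicate 2. The rate of Mir126b was far below that of Mir3544, and their counting intervals did not overlap in either library.

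**Figure D4:**
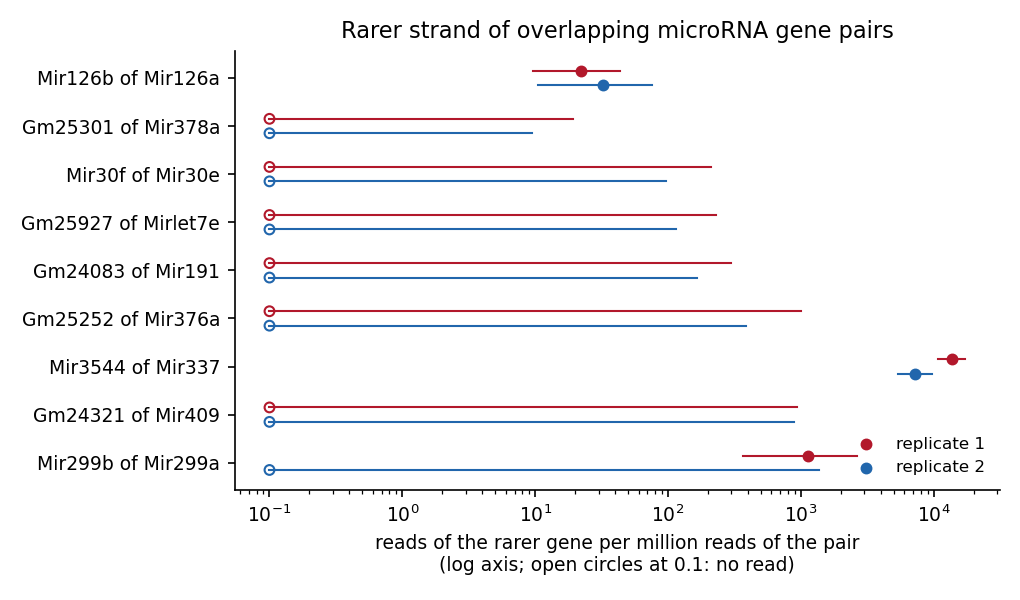
Reads of the rarer gene per 1000000 reads of the pair (log axis) for the 9 overlapping opposite-strand pairs with a gene of at least 1000 CPM on average, in replicate 1 (red) and replicate 2 (blue), with exact 95% intervals. Mir126b stands at 22.2 and 32.5 per 1000000, Mir3544 at 13739 and 7283, and open circles at the left edge mark pairs with no read of the rarer gene.

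Between the libraries, Mir126a was higher in replicate 1 by a log2 ratio of 1.84 (exact 95% interval 1.83 to 1.85, counting error only), which is 3.59-fold. This ratio is replicate 1 over replicate 2 on CPM scaled with TMM, a method that aligns the bulk of genes, after adding a pseudocount of 1 CPM. Mir126b had a log2 ratio of 0.92, which the pseudocount pulls towards 0 at so few reads. Its interval, taken on the counts without a pseudocount, was -0.50 to 3.25 and spans 0. With 1 library on each side there was no replicate check of either ratio and no test was run. A gene was counted as past 2-fold at an absolute log2 ratio of at least 1. Of the 329 genes at 10 CPM or more in either library, 22.2% were past 2-fold, 37 higher in replicate 1 (11.2%) and 36 lower in replicate 1 (10.9%). A difference of this kind was thus common.

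The ratio of Mir126a lay towards the upper end of these genes. The median log2 ratio of the 329 genes was 0.01 with an SD of 1.01, and the quartiles were -0.47 and 0.50. A higher ratio than that of Mir126a was found for 13 of the 329 genes (3.95%). A scaling shifts all ratios almost alike, so this rank hardly depends on it. Among the 93 genes averaging 1000 CPM or more, 25.8% were past 2-fold in either direction, 11 were higher in replicate 1 (11.8%), and 4 had a ratio above that of Mir126a. Under total counts without Mir126a, which shifted the median of all genes by 0.26, the ratio was 2.10.

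The share of Mir126a also moves the CPM of every other gene. Leaving Mir126a out of the totals raised each other CPM 1.22-fold in replicate 1 and 1.05-fold in replicate 2. With totals that left it out, 56 genes were past 2-fold in favour of replicate 1 and 27 in the other direction, against 42 and 33 with totals that held it. The higher genes were 67.5% of those past 2-fold with Mir126a left out and 56.0% with it, beside 50.7% under TMM and 35.9% under upper-quartile scaling.

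Over only 2 libraries, likeness of pattern means a similar ratio. Among genes averaging 1000 CPM or more, the 3 nearest above Mir126a were Mir15a of chromosome 14 (log2 ratio 1.91), Mir381 of chromosome 12 (2.11) and Mir22 of chromosome 11 (2.16). Mir15a is known for restraining the cell cycle and stood at 3996 CPM in replicate 1 against 1025 CPM in replicate 2. Mir381 stood at 3099 CPM in replicate 1 against 693 CPM in replicate 2, and Mir22 at 30246 CPM in replicate 1 against 6556 CPM in replicate 2. The 3 nearest below were Mir214 of chromosome 1 (1.69), a mesenchymal microRNA, Mir15b of chromosome 3 (1.60) and Mir122 of chromosome 18 (1.48). Mir214 stood at 3057 CPM in replicate 1 against 914 CPM in replicate 2, and Mir15b at 3895 CPM in replicate 1 against 1246 CPM in replicate 2. None of these 6 genes is on the chromosome of Mir126a.

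On chromosome 2 the closest annotated microRNA genes, named for their position, were barely counted. Mir6996, 121 kb upstream, had 0 and 4 reads in replicates 1 and 2, and Gm24049, 810 kb downstream, had 0 and 1. The nearest gene at 10 CPM or more in either library was Mir199b, 5727 kb downstream, a mesenchymal microRNA at 53.9 CPM in replicate 1 against 86.6 CPM in replicate 2. Its log2 ratio of -0.72 was opposite in sign to that of Mir126a.

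Other microRNAs that have been studied in endothelial cells were set beside Mir126a. None of these is restricted to endothelium. Of 17 such genes, 16 were at 10 CPM or more in either library, and all 16 reached it in both. None was past 2-fold in favour of replicate 1, 2 were past it in the other direction and 14 were within 2-fold. Over all 329 genes these shares were 11.2% higher and 10.9% lower in replicate 1 and, with 16 genes, nothing is read from the counts. Their median log2 ratio was -0.17, against 0.01 for all 329 genes. Under total counts without Mir126a this median was 0.09, against 0.26 for all 329 genes. The sign of the list median thus depends on the scaling. Its difference from the median of all 329 genes was -0.18 under TMM and under these totals.

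The 2 genes past 2-fold were Mir23a (10601 CPM in replicate 1 against 29452 CPM in replicate 2, log2 ratio -1.52) and Mir23b (12712 CPM in replicate 1 against 33619 CPM in replicate 2, -1.45), both of the miR-23/27/24 clusters that promote vessel sprouting in mice. Their cluster neighbours Mir27a (636 CPM in replicate 1 against 559 CPM in replicate 2, 0.14) and Mir27b (3999 CPM in replicate 1 against 3430 CPM in replicate 2, 0.17) were within 2-fold. Mir221 (454 CPM in replicate 1 against 849 CPM in replicate 2, -0.95) and Mir222 (66.7 CPM in replicate 1 against 99.4 CPM in replicate 2, -0.62), which restrain the stem cell factor receptor in endothelial cells, were also within 2-fold, although Mir221 was near it. The genes of the Mir17 cluster, linked to proliferation, stood on either side of 0, with Mir17 at -0.42, Mir20a at -0.34, Mir92-1 at 0.40 and Mir18 at 0.47. Mir130a (5874 CPM in replicate 1 against 5544 CPM in replicate 2, 0.03), Mir296 (961 CPM in replicate 1 against 908 CPM in replicate 2, 0.03) and Mir132 (486 CPM in replicate 1 against 526 CPM in replicate 2, -0.16) were nearly level. Mir210, induced by low oxygen, was level within counting error (134 CPM in replicate 1 against 148 CPM in replicate 2; its log2 ratio of -0.18 had an interval of -0.40 to 0.03). Mir31 (501 CPM in replicate 1 against 342 CPM in replicate 2, 0.50) and Mir100 (2452 CPM in replicate 1 against 3341 CPM in replicate 2, -0.49) had the highest ratio of the list and a negative one of like size. Mir217, linked to ageing endothelium, had 5 and 12 reads.

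**Figure D5:**
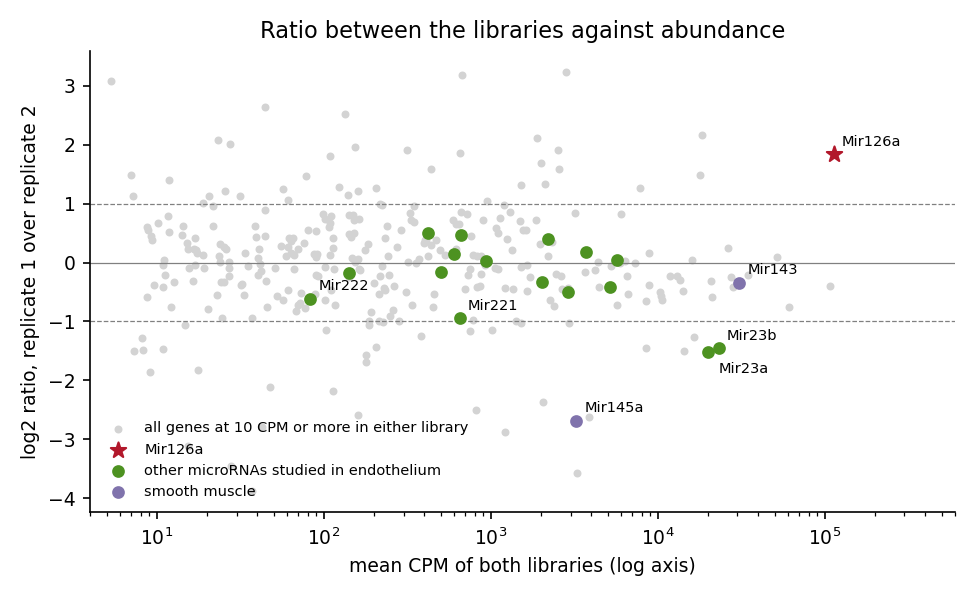
Log2 ratio of replicate 1 over replicate 2 against mean CPM (log axis) for the 329 genes at 10 CPM or more in either library (grey), with Mir126a as a red star, the 16 other microRNAs studied in endothelium in green and smooth muscle microRNAs in purple. Dashed lines mark 2-fold; Mir126a lies at 1.84, while none of the green points lies above the upper line and Mir23a and Mir23b lie below the lower one.

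MicroRNAs of other cell types and tissues also differed between the libraries, and their part in the difference of Mir126a was not tested. In bulk tissue, fewer endothelial cells and less miR-126 per cell cannot be told apart. Beside Mir126a at 17.8% in replicate 1 and 4.79% in replicate 2, the 2 smooth muscle genes summed to 2.84% and 3.93%. Mir143 (27532 CPM in replicate 1 against 33734 CPM in replicate 2, log2 ratio -0.34) was within 2-fold, and Mir145a (897 CPM in replicate 1 against 5579 CPM in replicate 2, -2.68) was higher in replicate 2. Mir126a was thus 6.46 times Mir143 in replicate 1 and 1.42 times Mir143 in replicate 2.

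Of the 4 leukocyte and platelet genes, none was past 2-fold in favour of replicate 1 and 2 were past it in the other direction, beside 11.2% and 10.9% of all 329 genes. With so few genes nothing is read from the counts of this list or of those that follow. The list summed to 1488 CPM in replicate 1 against 2451 CPM in replicate 2. The genes past 2-fold were Mir142 (471 CPM in replicate 1 against 1023 CPM in replicate 2, log2 ratio -1.16), found across blood cells, and Mir223 (91.4 CPM in replicate 1 against 265 CPM in replicate 2, -1.57), abundant in platelets and myeloid cells. The 3 red blood cell genes summed to 653 CPM in replicate 1 against 320 CPM in replicate 2, with 1 of 3 past 2-fold, Mir144 (246 CPM in replicate 1 against 60.5 CPM in replicate 2, 1.96). Their main member Mir451a stood at 348 CPM in replicate 1 against 229 CPM in replicate 2 (0.55). No gene of these lists was at 0 in either library.

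MicroRNAs of neighbouring or distant organs went in both directions. Mir122, which defines hepatocytes, was higher in replicate 1 (26733 CPM in replicate 1 against 9284 CPM in replicate 2, log2 ratio 1.48). All 4 striated muscle genes were past 2-fold in the same direction, with a list sum of 11312 CPM in replicate 1 against 4505 CPM in replicate 2, nearly all of it Mir206 (11177 CPM in replicate 1 against 4480 CPM in replicate 2). Mir133b and Mir208b reached 10 CPM in replicate 1 alone, which fixed their direction. Of the 3 kidney or gut genes, Mir192 (172 CPM in replicate 1 against 47.1 CPM in replicate 2, log2 ratio 1.80) and also Mir194-2 (178 CPM in replicate 1 against 69.8 CPM in replicate 2, log2 ratio 1.29) were past 2-fold in favour of replicate 1. Mir204 (57.8 CPM in replicate 1 against 96.3 CPM in replicate 2, log2 ratio -0.77) lay in the other direction within 2-fold, and the list summed to 408 CPM in replicate 1 against 213 CPM in replicate 2. The 7 epithelial genes summed to 742 CPM in replicate 1 against 3274 CPM in replicate 2, with 5 of 7 past 2-fold in favour of replicate 2, of which Mir200a and Mir141 reached 10 CPM in replicate 2 alone. The 3 neuroendocrine genes were all within 2-fold (log2 ratios from -0.41 to 0.12).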

How the data were processed

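Small RNA of adrenal glands was sequenced in 2 libraries and counted by the authors per microRNA gene, and the deposited values are raw read counts in 3 columns. These are, by their values, reads irrespective of strand, on the strand of the gene and on the opposite strand. Per the notes deposited beside each table, the build is mm10 and the annotation GENCODE M21. The aligner and the counter: not given in the sources used here. The 4 summary lines of each table stayed out of totals. Reads with several alignments (25.0% of all reads in replicate 1 and 27.2% in replicate 2) were not counted by the authors.

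All 2202 identifiers were matched to GENCODE M21. CPM was computed over the sense counts, and for values of another strand column over the total of that column. Log2 ratios used TMM factors of edgeR 4.0.16 (R 4.3.3) and a pseudocount of 1 CPM. DESeq2 1.42.0 gave alternative size factors only. Shares have Clopper-Pearson 95% intervals, and intervals of ratios come from the conditional binomial without the pseudocount. With 1 group of 2 libraries no test was run. The ratio calculation was tested on simulated data. Sequences came from RefSeq (GRCm38.p6), where both genes were found, and were folded with RNAfold 2.7.2. Calculations used Python 3.11.15, SciPy 1.17.1 and pandas 2.3.3.

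Named genes were Mir126a and Mir126b, the 10 with the highest mean CPM, those within 3 ranks of Mir126a in a library, the 3 nearest in ratio on each side at a mean of at least 1000 CPM, the opposite-strand pairs at that level and members of 9 lists of cell type microRNAs. Mir10a, Mir203, Mir7654, Mir708 and the chromosome 2 neighbours Mir6996, Gm24049 and Mir199b were named outside this rule, after their values were seen. Members and lists were chosen with earlier results of these data known.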

Additional observations from a re-analysis of the deposited data

How the results depend on the processing

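Mir126a was past 2-fold in favour of replicate 1 under every scaling and pseudocount tried. Its log2 ratio was 1.81 with DESeq2 size factors, 1.89 with total sense counts, 1.92 with all reads, 1.61 with upper-quartile scaling and 2.10 with totals without Mir126a. From counts irrespective of strand, with 15 and 3 reads, it was 2.26, and from the opposite strand, with 8 and 5 reads, 1.09. The opposite-strand reads are equal in number to those of Mir126b. Both ratios rest on too few reads to bear on that of the sense reads. The strand column and its total of assigned reads set the levels. The mean of Mir126a was 5.94 CPM irrespective of strand and 10.2 CPM on the opposite strand. That of Mir126b was 0 CPM and 404348 CPM, since the plus-strand reads are then listed under Mir126b. Totals on the opposite strand were 621816 and 667507 reads, against 2023410 and 3208821 sense reads, in replicates 1 and 2. The same reads thus give a higher CPM on the opposite-strand column. Over all reads Mir126b averaged 1.05 CPM. Leaving out a library gave 47927 CPM (without replicate 1) to 177728 CPM (without replicate 2) for Mir126a and 1.56 to 3.95 CPM for Mir126b. Genes past 2-fold in favour of replicate 1 numbered 37, and those lower in replicate 1 numbered 36. With totals without Mir126a these counts were 56 and 27, and with upper-quartile scaling 28 and 50. The larger side thus depends on the scaling. With no floor the counts were 63 and 68, and at a floor of 100 CPM 24 and 24. Fewer or more genes enter under those floors. List medians under further scalings were added after the data were seen. The median of the other endothelial microRNAs was -0.17 under TMM and 0.09 with totals without Mir126a, beside 0.01 and 0.26 for all 329 genes. No paired analysis was possible because there is 1 group. Depth limits Mir126b, whose counts are too low to compare the libraries.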
